A study of Mus musculus and Rattus norvegicus with 12 samples.

Results

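The natriuretic peptide system was followed through 10 genes: the ligands Nppa, Nppb and Nppc, the receptors Npr1, Npr2 and Npr3, the convertases Corin, Furin and Pcsk6, and the peptidase Mme. The members were given by name, and each symbol was matched to the rows of the count tables with case ignored. All 10 were found, among 54087 genes in the mouse table and 28909 in the rat table. RNA was sequenced in 12 libraries, 3 in each of 4 groups. The flox group was heart apex of Jmjd4f/f mice, and the cKO group was the same tissue of Jmjd4f/f mice that also carried the MCM transgene under the myh6 promoter, a Cre recombinase that acts in cardiomyocytes after tamoxifen. Both groups received tamoxifen and were sampled 14 days later. The control hearts carried no Cre, so effects of Cre and of Jmjd4 loss cannot be told apart, and whole apex tissue holds cells other than those in which this promoter is active. Mouse age, strain and any pooling of animals were not given in the sources used here. Both other groups were wild-type neonatal rat ventricular cardiomyocytes (NRVCs), grown from hearts of 1-day-old Sprague-Dawley rats and depleted of fast-attaching cells by preplating, after 48 h with a control siRNA (siNC) or an siRNA against Jmjd4 (siJmjd4).

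Natriuretic peptides are hormones that the heart releases when its wall is stretched. Nppa encodes atrial natriuretic peptide (ANP) and Nppb encodes brain natriuretic peptide (BNP). Both are fetal ventricular genes that return in the failing ventricle, whereas C-type natriuretic peptide, from Nppc, is mainly a vascular and skeletal factor. Corin, a membrane serine protease of cardiomyocytes, cuts pro-ANP, and furin and Pcsk6 (PACE4) are proprotein convertases. Furin cuts pro-BNP, and Pcsk6 activates corin. Npr1 and Npr2 are receptor guanylyl cyclases that make cGMP, Npr1 for ANP and BNP and Npr2 for C-type natriuretic peptide. Npr3 is the clearance receptor, which takes peptides up, and Mme (neprilysin) is the membrane peptidase that degrades them.

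Nppa and Nppb lie next to each other on mouse chromosome 4, and the DNA just upstream of each is shown because these adjacent ligand genes are the ones with the highest levels in the cKO hearts. By the GENCODE M21 annotation of GRCm38 (also called mm10), Nppb runs from 147985788 to 147987205 and Nppa from 148000722 to 148002079, both on the plus strand and 13516 bases apart. The 250 bases before the RefSeq start of each (GRCm38.p6, plus strand) are chr4:148000472-148000721 for Nppa and chr4:147985650-147985899 for Nppb. RefSeq places the Nppb start downstream of the GENCODE one. Capitals mark the letters GATAA, a core of GATA factor sites, and CATTCC, the MCAT element of TEAD factors, on either strand, and all motifs were searched on both strands.
Nppa: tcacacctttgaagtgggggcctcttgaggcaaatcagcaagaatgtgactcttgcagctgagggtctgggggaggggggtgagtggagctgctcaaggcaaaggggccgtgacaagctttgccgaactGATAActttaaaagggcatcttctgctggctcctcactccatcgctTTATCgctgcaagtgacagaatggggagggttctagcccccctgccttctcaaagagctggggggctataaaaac
Nppb: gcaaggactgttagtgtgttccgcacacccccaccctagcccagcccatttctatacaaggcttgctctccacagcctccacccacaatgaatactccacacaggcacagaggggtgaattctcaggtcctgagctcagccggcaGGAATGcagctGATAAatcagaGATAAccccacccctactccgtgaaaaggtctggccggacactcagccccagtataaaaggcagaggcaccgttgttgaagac
Each window held GATAA in 2 places. It began at positions -121 and -75 before the Nppa start and at -94 and -83 before the Nppb start. Of 32851 mouse promoter windows of this length, 22.6% held GATAA at least once and 4.3% held it 2 or more times. CATTCC was found upstream of Nppb, at -105, and not in the Nppa window, and 12.6% of all windows held it. AAGTG, the core of the element bound by Nkx2-5, was found in 2 places upstream of Nppa (-239 and -65) and not in the Nppb window, against 40.7% of all windows. TATAAA began at -9 in the Nppa window and at -31 in the Nppb window (12.4% of all windows). The strict form of the CArG box, CCWWWWWWGG with W for A or T, was in neither (1.5%). Forms with a changed letter, such as ctttaaaagg just after the first GATAA of the Nppa window, were not searched for. GATAA was in none of the windows of the other 8 genes. These matches are of letters only, and binding was not measured.

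The heart libraries held 66364405 to 80297797 counts and the NRVC libraries 57174654 to 82187009. Of the counts between 1 and 40, 32% to 38.4% were multiples of 4, where an even spread gives 25%, so that 1 count need not be 1 read. One heart library, flox replicate 3, was the most unlike the rest. Against the mean of flox replicates 1 and 2, its median log2 ratio was 1.28 in the fifth of genes with the shortest transcripts and -1.77 in the fifth with the longest, and its TMM scaling factor was 0.441 against 1.057 to 1.349 in the others. siNC replicate 3 showed the same kind of trend, from 0.73 to -0.77. cKO replicate 2 also stood apart, with chi-square over degrees of freedom of 361 and 403 against the other cKO hearts, which gave 145. For siJmjd4 replicate 1 the values were 60.5 and 103, beside 27.2 between the other siJmjd4 libraries. Each was left out together with the third control of its system in 1 alternative. Jmjd4 itself had values of 19, 8.04 and 16.9 CPM (counts scaled by library size) in flox and of 8.95, 4.92 and 9.63 CPM in cKO hearts, which overlap (log2 fold change -0.90, SE 0.44, edgeR adjusted p = 0.3973). Without flox replicate 3 its log2 fold change was -0.79 (SE 0.43, edgeR adjusted p = 0.3339). Which exons are floxed was not given in the sources used here, so these values may not measure the deletion. In the NRVCs it was at 3.46, 4.4 and 0.982 CPM in siNC, against 3.58, 3.43 and 3.52 CPM under the siJmjd4 label (log2 difference 0.25, SE 0.52), so the knockdown was not seen in RNA and each direction given for these cells rests on their labels.

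The first comparison was between cKO and flox hearts. Nppa rose in cKO hearts and Mme fell, and no other member passed the test with all 6 libraries. These are 2 of the 9 members tested, where 0.508% of all 18094 tested genes were called (0.37% higher and 0.138% lower), at an adjusted p under 0.05 in edgeR's quasi-likelihood test. The groups did not overlap for the same 2 members, beside 26.1% of all tested genes (14.9% higher and 11.2% lower). Nppc had too few counts to be tested. The median log2 fold change was 0.31 over the 9 members, with 7 above 0 and 2 below, and 0 over all tested genes.

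Among the ligands, Nppa was at 92.8, 119 and 175 CPM in flox replicates 1, 2 and 3, whereas the 3 cKO replicates had 7660, 16500 and 6030 CPM. Every cKO heart was far above every flox heart, and the spread within the cKO group was itself wide. The means were 128.9 ± 42.1 CPM in flox and 10060 ± 5622 CPM in cKO (SD, n = 3), a log2 fold change of 6.29 (SE 0.70, edgeR adjusted p = 0.03331). Nppa took 0.813% to 1.87% of all counts in the cKO libraries, where it ranked between 3rd and 12th of all genes, and 0.00773% to 0.0126% in flox, where it ranked between 903rd and 1270th. The size of the change was much the same without flox replicate 3 (6.57, adjusted p = 0.005273). Leaving out flox replicate 1 or 2 or cKO replicate 1, 2 or 3 gave log2 fold changes of 5.74 to 6.56 that did not pass (edgeR adjusted p = 0.1133 to 0.1925). An antisense gene, Gm13054 (148001091 to 148004014, minus strand), overlaps exons of Nppa, and reads of the 2 cannot be told apart if the counting ignored strand. The same holds for genes annotated on the opposite strand over exons of Npr1, Npr2, Npr3, Corin and Furin, and for Gm45213, which shares exonic bases with Pcsk6 on the same strand.

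Nppb was at 132, 92.8 and 981 CPM in flox replicates 1, 2 and 3 and at 949, 1870 and 728 CPM in the cKO hearts. Flox replicate 3 lay within the cKO range, and the other flox hearts lay below it. The log2 fold change was 1.56 (SE 0.96, 95% interval -0.73 to 3.85) and did not pass (edgeR adjusted p = 0.5202). Without flox replicate 3 it was 3.40 (SE 0.50, adjusted p = 0.01397), and Nppb then rose 10.6-fold. In that fit 3 of 10 members were called (Nppa and Nppb higher, Mme lower), beside 7.19% of all genes (4.26% higher and 2.93% lower). The level of Nppb in flox replicate 3 was above that in its group by a log2 ratio of 3.13, and that of Nppa by 0.73. The exons of Nppb cover 781 bases and those of Nppa 865 bases. With transcript length as an offset in the fit, Nppb was at 2.53 (edgeR adjusted p = 0.02766), in a fit that called 8.36% of all genes. Nppc was close to the limit of detection, with 16 counts in flox replicate 2, 16 in cKO replicate 2 and 0 in the other 4 hearts.

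Because any scaling of a library cancels in it, the ratio of 2 members within 1 library was also taken, for pairs chosen after the values were seen. Nppa over Nppb was 0.705, 1.28 and 0.179 in flox and 8.07, 8.81 and 8.28 in cKO hearts. The cKO hearts thus held a nearly constant ratio although Nppa itself varied between them, and the groups did not overlap. The difference of the mean log2 ratios was 3.95 (SD 1.46 in flox and 0.06 in cKO, n = 3), with an exact two-sided permutation p of 0.1, the smallest that 3 against 3 libraries allow (adjusted p = 0.15 over the 6 ratios tested). Without flox replicate 3 the difference was 3.14.

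**Figure D1:**
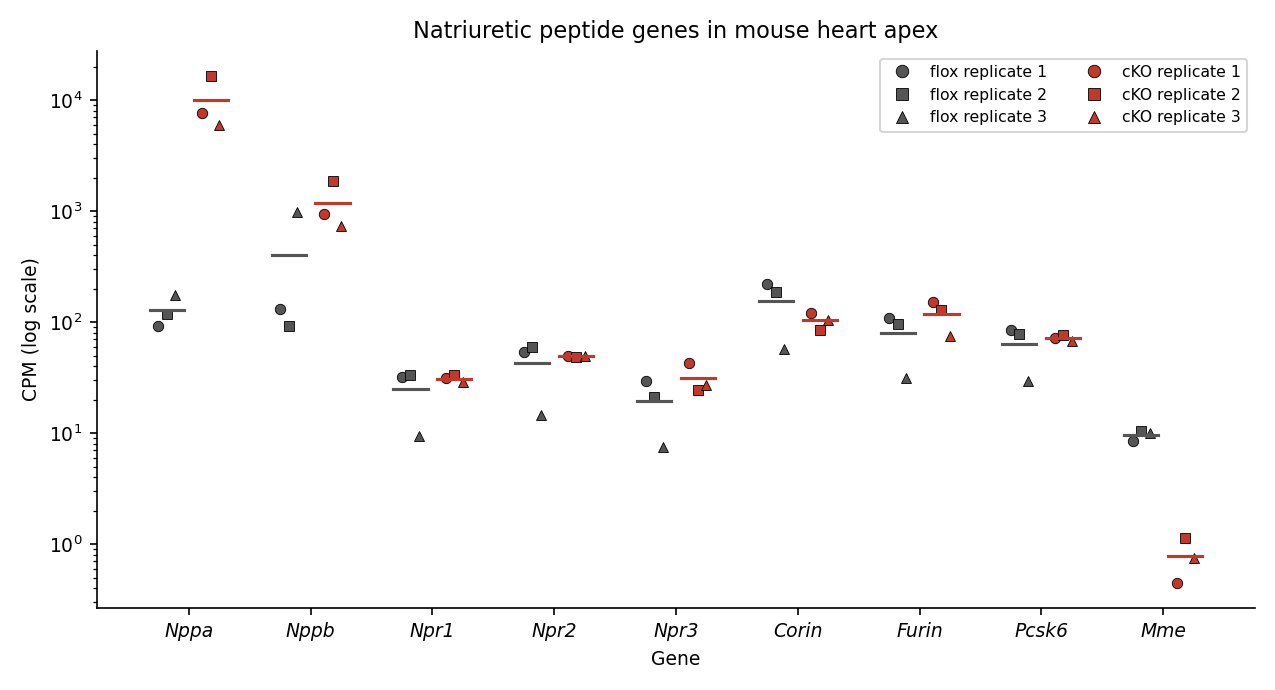
CPM on a log scale in each heart library for the 9 members with counts in all 6 hearts, in flox (grey) and cKO (red), with symbols for replicates and bars for means. Nppa is higher and Mme lower in all 3 cKO hearts, and flox replicate 3 (grey triangle) lies low for the receptors and convertases and high for Nppb.

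None of the 3 receptors passed the test in the hearts. Npr1, the ANP and BNP receptor, was at 32, 33.4 and 9.35 CPM in flox and 31.1, 33.1 and 28.8 CPM in cKO hearts. Npr2 was at 54.1, 59.4 and 14.5 CPM in flox and at 49.9, 48.1 and 49.9 CPM in cKO. For both, flox replicate 3 was the low value and the other 5 hearts lay close together. The log2 fold changes were 0.31 (95% interval -0.85 to 1.48) and 0.21 (-1.03 to 1.44) and turned to -0.07 (SE 0.18) and -0.20 (SE 0.18) without that library, so the direction of neither was settled. The clearance receptor Npr3 was at 29.8, 21.2 and 7.45 CPM in flox and 42.8, 24.3 and 27.1 CPM in cKO (log2 fold change 0.69, 95% interval -0.57 to 1.95, and 0.31 without flox replicate 3, adjusted p = 0.6262). The ratio of Npr3 to Npr1 was 0.932, 0.636 and 0.798 in flox and 1.38, 0.734 and 0.944 in cKO hearts, which overlap (exact permutation p = 0.4).

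Among the processing enzymes, Corin was at 220, 187 and 57.2 CPM in flox and at 122, 85.2 and 104 CPM in cKO hearts. The cKO hearts lay below flox replicates 1 and 2 and above flox replicate 3. Its log2 fold change was -0.58 (SE 0.53, edgeR adjusted p = 0.6867) and -0.97 (SE 0.23, adjusted p = 0.05609) without flox replicate 3, and Corin passed in 2 alternatives, with limma voom and sample weights (-0.88, adjusted p = 0.02117) and without both flox replicate 3 and cKO replicate 2 (-0.85, adjusted p = 0.01542), which called 21.3% and 19.1% of all genes. Furin was at 110, 96.6 and 31.4 CPM in flox and 151, 130 and 74.5 CPM in cKO (log2 fold change 0.58, 95% interval -0.70 to 1.86, and 0.21 without flox replicate 3). Pcsk6 was at 84.3, 78.1 and 29.8 CPM in flox and 72.2, 76.8 and 67.6 CPM in cKO (0.17, 95% interval -0.86 to 1.20), and its value turned to -0.17 without flox replicate 3. Within libraries, Corin over Furin was 2.01, 1.93 and 1.82 in flox and 0.808, 0.655 and 1.4 in cKO hearts. The groups did not overlap and flox replicate 3 lay with its group in this ratio. The mean log2 difference was -1.08 (SD 0.07 in flox and 0.57 in cKO, n = 3, exact permutation p = 0.1, adjusted p = 0.15).

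**Figure D2:**
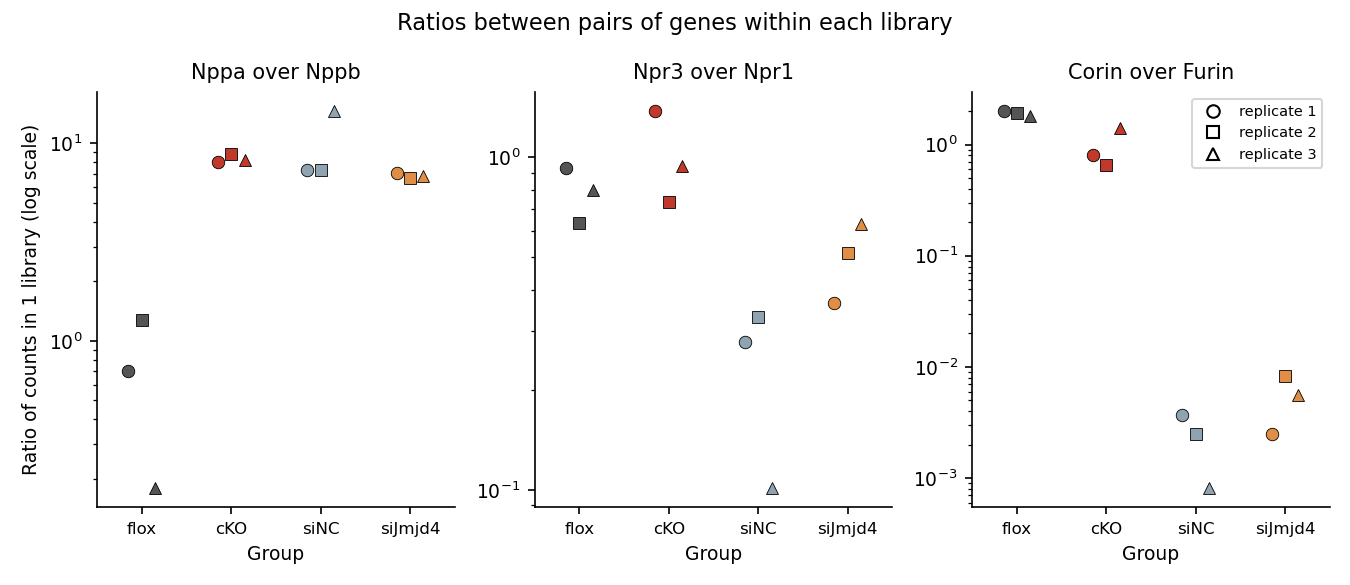
Ratio of the counts of 2 members within each library, on log axes, for the 4 groups, with symbols for replicates. Nppa over Nppb lies between 8.07 and 8.81 in cKO hearts and at or under 1.28 in flox, and Corin over Furin is lower in all 3 cKO hearts than in flox.

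Mme, which encodes neprilysin, was at 8.49, 10.5 and 9.99 CPM in flox and 0.451, 1.14 and 0.749 CPM in cKO hearts. After TMM scaling the flox hearts were close to each other, flox replicate 3 among them, and all lay above every cKO heart. The counts before scaling were 667, 809 and 354 in flox and 43, 90 and 67 in cKO hearts. The means were 9.659 ± 1.046 and 0.7814 ± 0.3477 CPM (SD, n = 3), and Mme fell by 3.63 on the log2 scale (SE 0.43, edgeR adjusted p = 0.03867), or 12.4-fold. Without flox replicate 3 the value was -3.60 (adjusted p = 0.00864). With transcript length as an offset it was -4.21 (edgeR adjusted p = 0.03032), in a fit that called 8.36% of all genes. The call was lost with scaling to library totals alone (-3.08, edgeR adjusted p = 0.07934) and when flox replicate 1 or 2 or any 1 cKO heart was left out (-4 to -3.34, adjusted p = 0.1521 to 0.1925). In whole tissue, fewer cells of a type and less RNA per cell cannot be told apart. The gene lies on chromosome 3 from 63241537 to 63386030, plus strand.

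Levels of different genes were compared per kilobase of exon. In cKO hearts the order was Nppa (6970 to 19100 CPM per kb), Nppb (932 to 2400), Corin (15.8 to 22.6), Pcsk6 (13 to 14.8), Furin (8.12 to 16.4), Npr2 (10.3 to 10.7), Npr1 (6.01 to 6.91) and Npr3 (2.59 to 4.56), with Nppc (0 to 0.195) and Mme (0.0391 to 0.0991) last. The range of Furin overlapped those of Corin, Pcsk6 and Npr2, the neighbours from Nppa to Corin and from Npr2 to Npr3 did not overlap each other, and Nppa and Nppb stood far above all other members. In flox hearts Nppb (119 to 1260 CPM per kb) and Nppa (107 to 203) overlapped, and Corin followed (10.6 to 40.8). Mme was at 0.735 to 0.909 CPM per kb in flox and at 0.0391 to 0.0991 in cKO hearts.

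The genes whose log2 CPM followed Nppa most closely over the 6 heart libraries were Bace2 (Pearson r 0.999), Efhd2 (0.9986), Wisp2 (0.9976) and Angptl7 (0.9954), of 12375 genes compared. Those closest to Nppb were Nfe2l2 (0.9951), Fcgr3 (0.9941), Ppp1r3c (0.9938) and Elovl1 (0.9927). Their log2 fold changes between cKO and flox were 0.33 to 1.22 (edgeR adjusted p = 0.3724 to 0.6722). The points share libraries and, for Nppa, fall into the 2 groups, so any gene split in the same way has a high r. For Nppb, flox replicate 3 lay within the cKO range, so any gene shifted likewise in that library has a high r. Nppa and Nppb had an r of 0.779 with each other over these 6 libraries.

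The wider pathway in the hearts was read from gene lists. Over all 18094 tested genes, 15% had an unadjusted p under 0.05 in edgeR, and 9.66% were called by DESeq2 and 21.3% by voom, and the counts of each list below are to be set beside these shares. Of 18 genes of cGMP signalling, all tested, edgeR called 0 with all libraries (3 had an unadjusted p under 0.05, and DESeq2 called 2 and voom 7), and the median log2 fold change was 0.11. The smallest p values were those of Rgs2, a regulator of G-protein signalling that cGMP kinase acts on (29.7, 29.7 and 73.1 CPM in flox and 6.98, 11 and 8.34 CPM in cKO, log2 fold change -2.33, adjusted p = 0.09134), and the phosphodiesterases Pde1c (-1.67, adjusted p = 0.1773) and Pde3b (0.85, adjusted p = 0.3143). Rgs2 (-1.76, adjusted p = 0.0115), Pde1c (-1.90, adjusted p = 0.04172) and Pde3a (-1.91, adjusted p = 0.01458) were the 3 genes of this list called, all lower, without flox replicate 3, where 7.19% of all genes were called. A list of 16 genes held other convertases and peptidases and also Ostn, which does not encode an enzyme. Of these 16, 12 were tested, edgeR called 0 (2 at an unadjusted p under 0.05, with 2 called by DESeq2 and 4 by voom) and the median was 0.37. Ace, the angiotensin-converting enzyme, had the smallest p (59.3, 46.2 and 5.82 CPM in flox and 238, 201 and 323 CPM in cKO, log2 fold change 2.78, adjusted p = 0.1773), before Ece2 (3.68, adjusted p = 0.2453). Without flox replicate 3, Ace (2.27, adjusted p = 0.01076) and the convertase Pcsk5 (1.02, adjusted p = 0.0444) were called higher. Osteocrin (Ostn), a peptide that occupies Npr3, was at 0 to 0.104 CPM.

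Of 21 transcription factors, cofactors and histone deacetylases that act on the Nppa and Nppb promoters, all were tested, edgeR called 0 (0 at an unadjusted p under 0.05, with 0 called by DESeq2 and 1 by voom, Tbx3) and the median was 0.11, or -0.22 without flox replicate 3. Gata4, a main cardiac GATA factor, was at 110, 107 and 65 CPM in flox and 125, 135 and 112 CPM in cKO hearts (log2 fold change 0.39, adjusted p = 0.6642). Nkx2-5 was at 65.8, 63.3 and 65.1 CPM in flox and 77.7, 114 and 53.5 CPM in cKO (0.34, adjusted p = 0.739). Tbx3 alone was called without flox replicate 3 (-1.23, adjusted p = 0.02229). Of the genes around the Nppb and Nppa locus, Clcn6, Plod1, Agtrap and Mfn2 were tested here and edgeR called 0 (0 at an unadjusted p under 0.05, with 0 called by DESeq2 and 1 by voom, Mfn2). Clcn6, the next coding gene downstream of Nppa, was at 16.1, 15.2 and 3.19 CPM in flox and 17.2, 12.9 and 15.4 CPM in cKO hearts (0.40, adjusted p = 0.8223, and -0.04 without flox replicate 3). These 4 neighbours had log2 fold changes between -0.35 and 0.51.

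Markers of other cells differed in part between the same groups. Of 11 tested atrial markers, 8 had values above 0 and 3 below, edgeR called 0 (5 at an unadjusted p under 0.05, with 4 called by DESeq2 and 6 by voom, beside the shares of 15%, 9.66% and 21.3% of all genes), and Bmp10 was at 0 in all hearts. The summed level of the list was 403.1 to 548.3 CPM in flox and 713.4 to 910.8 in cKO, but most of it was 1 gene, Pam (312 to 438 CPM in flox and 530 to 796 in cKO, log2 fold change 0.70, adjusted p = 0.4385). Single atrial markers went both ways. Kcnj3, a potassium channel subunit with the smallest p of the list, was at 19.4, 20.2 and 7.34 CPM in flox and 2.56, 1.74 and 2.26 CPM in cKO hearts (-2.84, adjusted p = 0.06085), and Kcna5 had a value of -0.88. The atrial light chains Myl7 (2.56) and Myl4 (3.55), and Dkk3 (4.00), had values above 0, and these 5 were called without flox replicate 3, Kcnj3 and Kcna5 lower and the others higher. All 10 fibroblast markers had values above 0, with 0 called by edgeR, 5 by DESeq2 and 7 by voom. At an unadjusted p under 0.05 there were 6, against the same shares of all genes. Their summed level was 823.3 to 1273 CPM in flox and 2909 to 7520 in cKO. Most of the cKO sum was the matrix genes Postn, Col1a2, Col1a1 and Col3a1, which had the largest log2 fold changes (4.95, 2.64, 2.46 and 2.28). The groups overlapped for Pdgfra (0.87), Ddr2 (0.44) and Thy1 (0.33) and not for the other 7 markers. The 10 macrophage and neutrophil markers summed to 85.97 to 125.5 CPM in flox and 205.4 to 273.8 in cKO. Of these 10, 8 had values above 0 and 2 below, Cx3cr1 (-0.8) and S100a8 (-0.53). EdgeR called 1, Ccr2, higher (2.51, 2.92 and 3.64 CPM in flox and 14.3, 10.8 and 12.2 CPM in cKO), DESeq2 2 and voom 7. At an unadjusted p under 0.05 there were 5. The endocardial and endothelial markers, of which Npr3 is one, summed to 478 to 1267 CPM in flox and 921.8 to 1191 in cKO, with 0 of 12 called by edgeR, 1 by DESeq2 and 3 by voom, and 2 at an unadjusted p under 0.05. The list of ventricular markers also holds general cardiomyocyte genes, such as Myh6, Tnnt2 and Actc1. It summed to 44070 to 73210 CPM in flox and 34910 to 38430 in cKO, and 8 of 9 genes were below 0 with all libraries. EdgeR called 0 (3 at an unadjusted p under 0.05), DESeq2 2 and voom 3. Flox replicate 3 was high for Myl2 (2620, 2690 and 17200 CPM in flox) and low for Myh6 (24000, 21400 and 3660 CPM). The median log2 fold change was -0.53, and -0.21 without that library. Myl2 (0.09), Tnnt2 (0.14) and Actc1 (0.01) were then above 0 as well as Myh7. With all libraries the 1 ventricular marker above 0 was Myh7, the beta myosin heavy chain, at 475, 494 and 78.3 CPM in flox and 8470, 4030 and 3660 CPM in cKO (3.95, adjusted p = 0.1014, and 3.48, adjusted p = 0.01242, without flox replicate 3). Smooth muscle and pericyte markers summed to 953.1 to 1300 CPM in flox and 883.9 to 934.1 in cKO. Of these 8, 5 had values above 0 and 3 below. EdgeR called 1, Cnn1, higher (2 at an unadjusted p under 0.05), DESeq2 2 and voom 4. Acta2 was lower without overlap (223, 330 and 414 CPM in flox and 87.5, 134 and 172 CPM in cKO, log2 fold change -1.3, edgeR adjusted p = 0.2205). The part of these cells in the values of the members was not tested.

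The siRNA against Jmjd4 was set against the control siRNA in NRVCs. EdgeR called 0 of the 10 members, all tested, and 0.00645% of 15497 tested genes. At an unadjusted p under 0.05 there were 3 members (Nppa, Npr3 and Mme) and 8.71% of all genes. DESeq2 called 0 members and 1.08% of all genes, and voom 1 member (Nppa, -0.43, adjusted p = 0.04087) and 7.41% of all genes. Since nothing in the labels ties a culture to its own isolation of cells, p values here measure only the spread between these samples, which may be technical. The groups did not overlap for Nppa, lower in the libraries labelled siJmjd4, and for Npr3, Pcsk6 and Mme, higher there. These are 4 of 10 members, beside 40.2% of all tested genes without overlap (22.4% higher and 17.8% lower). The members had a median log2 fold change of -0.05, beside 0.01 over all genes.

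Nppa was among the most abundant transcripts of these cells, ranking between 4th and 16th by counts. It was at 5420, 5840 and 9440 CPM in siNC replicates 1, 2 and 3 and, in the libraries labelled siJmjd4, at 5100, 4050 and 4100 CPM. siNC replicate 3 was the high value. The log2 fold change was -0.64 (SE 0.26, 95% interval -1.28 to -0.01, edgeR adjusted p = 0.379). Without siNC replicate 3 it was -0.35 (SE 0.11, adjusted p = 0.1123), in a fit that called 0 members and 0.57% of genes (0.487% higher and 0.0823% lower). With transcript length as an offset it was -0.08 (edgeR adjusted p = 0.7056), in a fit that called 0 genes. The deposited count of Nppa in siNC replicate 3 is exactly 500000, the 1 value above 0 in either table that is a multiple of 100000. In that library 3 other genes have higher counts, so the table holds no common upper limit there. How that count arose was not tested. Nppb was at 739, 798 and 645 CPM in siNC and 721, 606 and 598 CPM in siJmjd4 (log2 fold change -0.18, 95% interval -0.58 to 0.22). Nppa over Nppb was 7.34, 7.31 and 14.6 in siNC and 7.08, 6.68 and 6.85 in siJmjd4, so that 5 of the 6 libraries lay between 6.68 and 7.34 and siNC replicate 3 lay well above them (exact permutation p = 0.1, adjusted p = 0.15). Nppc was measurable here, at 0.218 to 1.11 CPM in siNC and 0.555 to 0.78 CPM in siJmjd4.

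**Figure D3:**
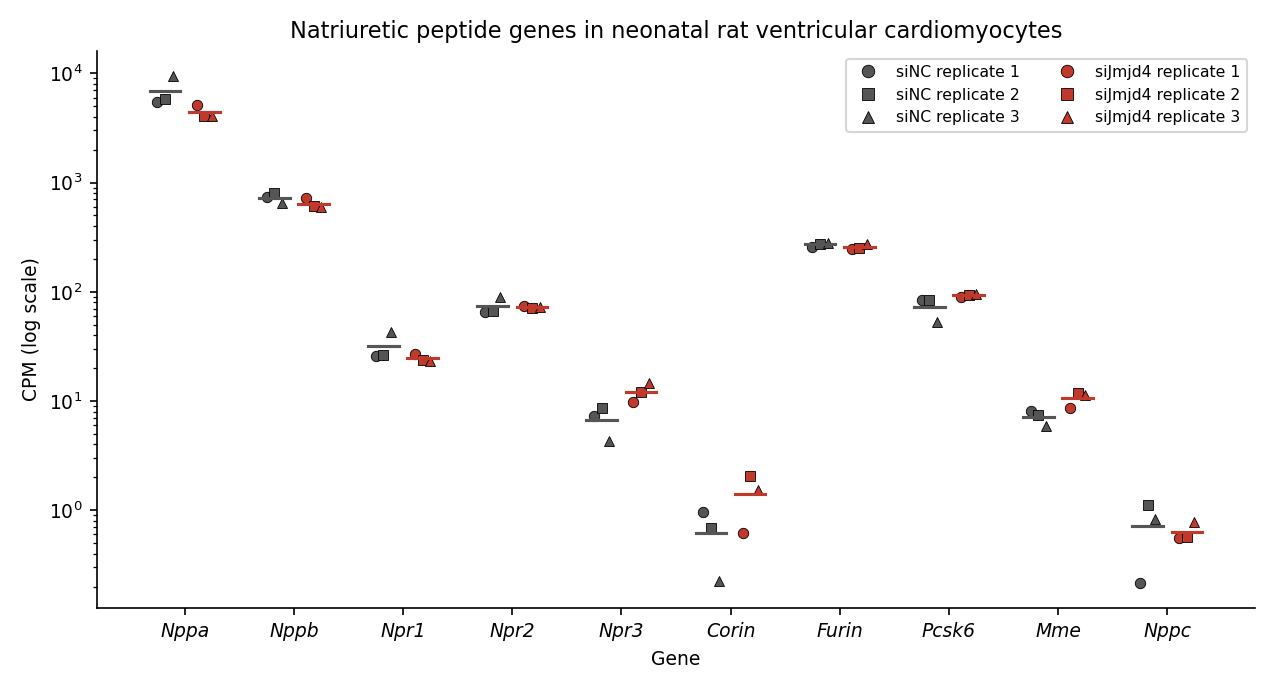
CPM on a log scale in each NRVC library for the 10 members, in siNC (grey) and the libraries labelled siJmjd4 (red), with symbols for replicates and bars for means. The groups lie close for most members, and siNC replicate 3 (grey triangle) is high for Nppa, Npr1 and Npr2 and low for Npr3, Corin and Pcsk6.

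Of the receptors in the NRVCs, Npr3 was at 7.28, 8.69 and 4.32 CPM in siNC and 9.77, 12.2 and 14.6 CPM in siJmjd4, a log2 fold change of 0.85 (SE 0.31, 95% interval 0.09 to 1.61, edgeR adjusted p = 0.379) and of 0.61 (adjusted p = 0.1079) without siNC replicate 3. With transcript length as an offset the log2 fold change of Npr3 was 0.31 (edgeR adjusted p = 0.4325). Npr3 over Npr1 was 0.279, 0.331 and 0.101 in siNC and 0.365, 0.514 and 0.63 in siJmjd4, with no overlap (mean log2 difference 1.22, or 0.69 without siNC replicate 3, exact permutation p = 0.1, adjusted p = 0.15). Npr1 was at 26.1, 26.3 and 42.8 CPM in siNC and 26.7, 23.8 and 23.2 CPM in siJmjd4 (-0.37, 95% interval -0.95 to 0.21). Npr2 was at 65.3, 67.1 and 90.2 CPM in siNC and 74.6, 70.7 and 72.1 CPM in siJmjd4 (-0.03, 95% interval -0.44 to 0.38). The intervals of both guanylyl cyclase receptors held 0.

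Of the processing enzymes, Furin was at 258, 276 and 281 CPM in siNC and 248, 250 and 276 CPM in siJmjd4 (log2 fold change -0.07, 95% interval -0.39 to 0.25). Pcsk6 was at 83.3, 83.3 and 52.7 CPM in siNC and 89.7, 93.1 and 94.7 CPM in siJmjd4 (0.34, 95% interval -0.16 to 0.84, and 0.15 without siNC replicate 3). Corin was near the limit of these libraries, with 12 to 57 counts in siNC and 53 to 130 in siJmjd4, or 0.227 to 0.954 and 0.613 to 2.07 CPM. In the flox hearts Corin was at 57.2 to 220 CPM, but the 2 tables were scaled separately and differ in species, age and cell mixture. Mme was at 8.03, 7.5 and 5.89 CPM in siNC and 8.56, 11.9 and 11.3 CPM in siJmjd4 (0.56, SE 0.23, edgeR adjusted p = 0.379).

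By edgeR the wider lists gave 0 calls in the NRVCs among 14 tested genes of cGMP signalling (median log2 fold change 0.53), 12 peptidases (0.12), 21 promoter regulators (0.41) and 4 neighbours (-0.16). At an unadjusted p under 0.05 these lists held 4, 0, 5 and 0 genes, DESeq2 called 1, 0, 0 and 0, and voom 3, 0, 5 and 0, beside 8.71%, 1.08% and 7.41% of all genes. Without siNC replicate 3 the first 3 medians were 0.31, 0.04 and 0.18, and Tbx20 was the 1 called gene of these lists (1.32, adjusted p = 0.04886). Tbx20, a cardiac T-box factor, was at 35.9, 31.6 and 9.25 CPM in siNC and 66.4, 85.6 and 101 CPM in siJmjd4. The lowest p values among cGMP genes were those of Gucy1a2, a subunit of soluble guanylyl cyclase (0.703, 0.602 and 0.321 CPM against 1.47, 1.5 and 3.08 CPM, log2 fold change 1.89, adjusted p = 0.379), and of the phosphodiesterases Pde5a (1.60) and Pde3a (1.28). Fibroblast markers summed to 36270 to 44250 CPM in siNC and 42960 to 49660 CPM in siJmjd4. The ventricular list, with its general cardiomyocyte genes, summed to 19470 to 28020 and 15260 to 18770. The cultures labelled as cardiomyocytes thus also held RNA of fibroblast genes. The mean of Nppa, like the sum of this ventricular list, was lower in the siJmjd4 libraries, and the part of the cell mixture in this was not tested.

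The responses of the 2 systems were then compared in 1 edgeR model of all 12 libraries, in which genes were paired by symbol. Nppa and Mme differed, 2 of the 10 members, beside 1.68% of 13482 shared genes (1.34% higher and 0.341% lower in hearts) at an adjusted p under 0.05. For Nppa the difference of the log2 fold changes, hearts minus NRVCs, was 6.93 (SE 0.68, 95% interval 5.45 to 8.41, edgeR adjusted p = 0.0009759), from 6.29 in the hearts and -0.64 in the NRVCs. For Mme it was -4.19 (SE 0.49, 95% interval -5.26 to -3.13, edgeR adjusted p = 0.002362), from -3.63 and 0.56. Both calls held when any 1 of the 12 libraries was left out. The spread of each gene was estimated over all 12 libraries together, so the cultures enter these p values. In the hearts alone both calls were lost when any 1 library other than flox replicate 3 was left out. Nppb differed by 1.76 (95% interval -0.47 to 3.99, edgeR adjusted p = 0.432), and by 3.65 (SE 0.51, adjusted p = 0.003102) without flox replicate 3 and siNC replicate 3, where 12.8% of genes were called (7.16% higher and 5.68% lower) and 3 members. Corin had opposite signs in the systems, with a difference of -1.74 that did not pass (95% interval -3.57 to 0.10, edgeR adjusted p = 0.3478). The intervals of Npr1 (-0.60 to 1.94), Npr2 (-1.05 to 1.51), Npr3 (-1.60 to 1.26), Furin (-0.65 to 1.94) and Pcsk6 (-1.28 to 0.93) all held 0. The systems differ in species, age, cell mixture and means of targeting Jmjd4, and these cannot be told apart.

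**Figure D4:**
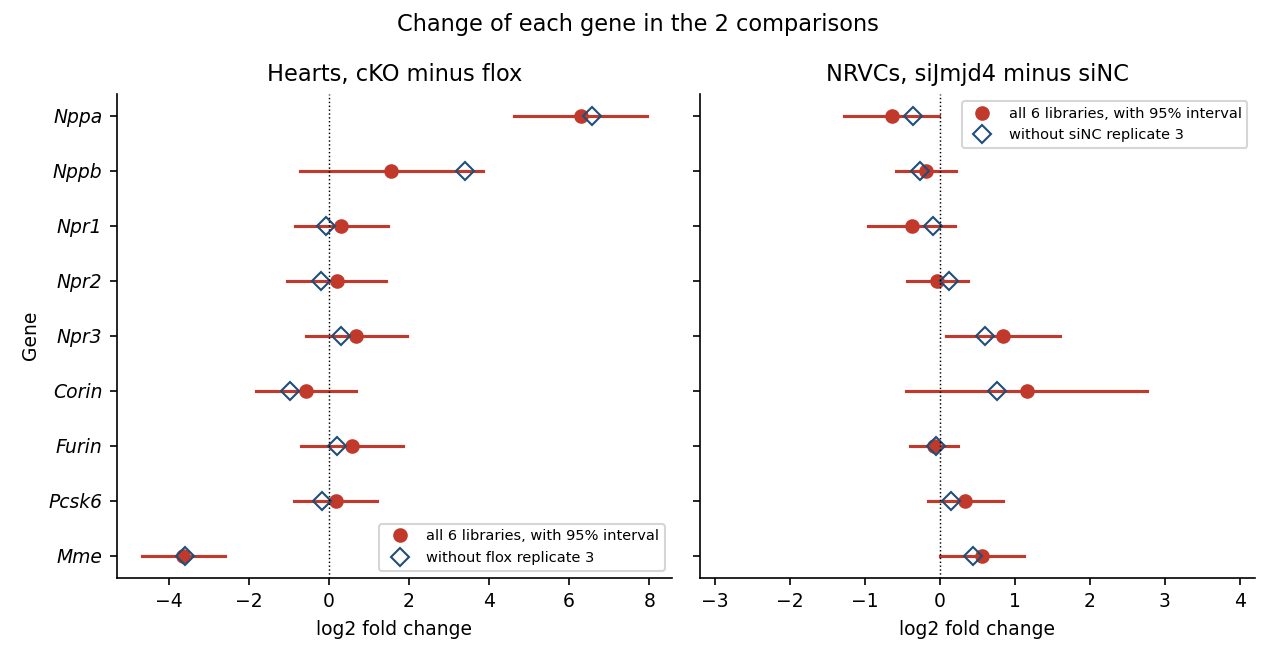
Log2 fold change of 9 members in hearts (left) and NRVCs (right), as red points with 95% intervals from all 6 libraries and open blue diamonds without the third control library. Nppa and Mme lie far from 0 in the hearts with and without flox replicate 3, the value of Nppb moves from 1.56 to 3.40, and the axes of the panels differ in range.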

How the data were processed

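Total RNA was extracted with TRIzol and sequenced after standard Illumina library preparation, per the labels' protocols. For each system the authors deposited raw counts, as whole numbers by gene symbol. Per the submitters' processing notes, HISAT2 2.1.0, StringTie 1.3.4, edgeR 3.20.9 and the builds rn6 and mm10 were used, in roles that are not stated. Counting rules, strand setting and annotation were not given in the sources used here.

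Columns were matched to samples by the names in the labels. Genes were kept by edgeR's filterByExpr, libraries were scaled by TMM, and a robust quasi-likelihood model was fitted to the 6 libraries of each system with group as the only term (edgeR 4.0.16, R 4.3.3). P values were two-sided and adjusted by Benjamini-Hochberg over all genes tested. CPM values use TMM-scaled library sizes. Standard errors come from the F statistic. For the difference between systems, 4 group means were fitted to genes matched by symbol, ignoring case. No 2 replicates were 1 library deposited in duplicate, since chi-square over degrees of freedom was 27.2 to 1730. Lengths and mouse positions come from GENCODE M21, and promoter windows from RefSeq (GRCm38.p6), where all 10 members matched. Alternatives used DESeq2 1.42.0 and limma 3.58.1. The lengths used as an offset covered 80% of tested mouse genes and 84% of rat genes, the latter by the mouse gene of the same symbol. The code was tested on simulated counts.

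The members and gene lists were chosen with earlier results of these data known. All 10 members are named, and 1 gene near the Nppa locus is not reported here. From each of the 4 pathway lists the text names up to 3 genes of smallest p and any called. Chosen after their values were seen were Gata4, Nkx2-5, Clcn6, Ostn and the genes of these 4 lists called without flox replicate 3 or siNC replicate 3. The cell markers chosen in the same way were Bmp10, Pam, Kcnj3, Kcna5, Myl7, Myl4, Dkk3, Myh7, Myh6, Myl2, Tnnt2, Actc1, Postn, Col1a1, Col1a2, Col3a1, Pdgfra, Ddr2, Thy1, Ccr2, Cx3cr1, S100a8, Cnn1 and Acta2. The genes closest to Nppa and Nppb are the 4 of highest Pearson r on log2 CPM (prior count 2) with a mean of at least 1 CPM and no predicted or clone name.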

Additional observations from a re-analysis of the deposited data

Results flagged for a closer look

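The response of Nppa differed between the hearts and the NRVCs by 6.93 on the log2 scale (hearts minus NRVCs) in the test of the difference itself. All 3 cKO hearts were above all flox hearts, and all 3 libraries labelled siJmjd4 were below all siNC libraries. In the NRVCs 40.2% of all genes had groups without overlap, and neither Nppa nor Mme passed there (edgeR adjusted p = 0.379 for both). With transcript length as an offset, Nppa was at -0.08 and Mme at -0.13 in the NRVCs (edgeR adjusted p = 0.7056 and 0.7208). The response of Mme differed by -4.19, with all 3 cKO hearts below flox and all 3 siJmjd4 libraries above siNC.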

How the results depend on the processing

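In the hearts, 2 members were called with all libraries. The number was 1 with library total counts alone and with a mean of at least 5 CPM (Nppa in both, with Mme not tested in the latter), 4 with limma voom and quality weights (21.3% of all genes called) and 4 without both flox replicate 3 and cKO replicate 2 (19.1%; Nppa, Nppb, Corin and Mme in both), and 0 to 3 when 1 library was left out. It was 3 with transcript length as an offset (8.36% of all genes). In the fits that left out 1 library other than flox replicate 3, edgeR called 0 genes of any kind (1657 to 2587 had an unadjusted p under 0.05). Over all genes the calls were 92, against 1748 with DESeq2's Wald test, 3851 with voom, 146 with no filter and 20 with library totals. In the NRVCs 0 members were called, against 1 with limma voom (Nppa, -0.43, with 7.41% of all genes called) and 4 without siNC replicate 3 and siJmjd4 replicate 1 (15.8% of all genes; Nppa, Nppb, Npr3 and Mme). The difference between the systems called 2 or 3 members in all alternatives tried, leaving out 1 library included. Those fits estimate the spread of each gene over both systems together.

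Values near 0 turned sign. In the hearts Npr1, Npr2 and Pcsk6 were at -0.09, -0.17 and -0.18 with voom, -0.07, -0.20 and -0.17 without flox replicate 3 (ranges when 1 library was left out -0.07 to 0.59, -0.20 to 0.52 and -0.17 to 0.43), and -0.13, -0.20 and -0.22 without that library and cKO replicate 2. In the NRVCs the length offset put Nppb at 0.26, Nppc at 0.31 and Mme at -0.13. Nppc was at 0.07 with the replicate block, 0.04 with voom and 0.29 without siNC replicate 2 (range -0.61 to 0.29). Npr2 was at 0.08 with library totals, 0.11 with voom, 0.13 without siNC replicate 3 (range -0.11 to 0.13) and 0.09 without that library and siJmjd4 replicate 1, and Furin was at 0.02 with library totals. For the difference between the systems, Npr2 was at -0.34 without flox replicate 3 and siNC replicate 3 and -0.19 without flox replicate 3 (range -0.19 to 0.54), Npr3 at 0.13 with library totals, 0.28 without flox replicate 1 and 0.07 without siNC replicate 3 (range -0.56 to 0.28), and Pcsk6 at 0.12 with library totals and 0.08 without flox replicate 1 (range -0.52 to 0.08). The cause was not tested.

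With the replicate block 0 members and 0 genes of any kind were called in the hearts (1591 at an unadjusted p under 0.05, Nppa 6.20, adjusted p = 0.3092, and Mme -3.72, adjusted p = 0.302). Same-numbered flox and cKO libraries had deviations correlated at 0.36, -0.48 and -0.33, and those of siNC and siJmjd4 at -0.14, -0.02 and -0.15. Not every sample thus correlates best with its own number. These values do not show a pairing by number, and with 3 libraries in each group they cannot exclude one. The length offset in the NRVCs and the ratios were added after the data were seen. Depth limits Nppc in the hearts and Corin in the NRVCs.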
